A study of Drosophila melanogaster with 18 samples.

Results

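Transposable elements are described here insertion by insertion. The rows of the count table that stand for annotated transposon insertions were taken, and those with 100 or more raw counts summed over the 18 libraries were kept. The members were thus chosen by their raw counts. This rule selected 416 of 5416 annotated insertions, in a table of 23932 features. Of the other insertions, 2132 had 0 counts and 2868 had 1 to 99. The 416 insertions held 81.2% of the 244282 counts assigned to insertions, and 255 of them passed the filter on low counts that precedes a test across all features. The selection used the summed counts themselves, so the height of these counts is a description and not a result.

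RNA of whole W1118 flies, a white-eyed laboratory strain kept on sugar/yeast food, was sequenced in 3 groups of 6 libraries. CHX flies were collected at day 2 after feeding on food into which 1 µM cycloheximide (CHX), a blocker of translation elongation, had been mixed. Vehicle flies were collected at day 2 on food without the drug, and Day 0 flies were collected at day 0 without treatment. The labels name neither the sex of the flies nor separate cultures behind the libraries, so p-values measure the spread between libraries, which may be technical.

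The libraries held 24033830 to 38519240 counts in CHX flies, 21495631 to 27217129 in vehicle flies and 27180491 to 37879190 in Day 0 flies. At least 1 read was counted on 1103 to 1692 annotated insertions per library in CHX flies, 1333 to 1676 in vehicle flies and 1170 to 1550 in Day 0 flies. Levels are given in CPM, counts scaled to 1000000 per library, after the library sizes were adjusted by the trimmed mean of M-values (TMM), whose factors were 0.823 to 0.929 in CHX flies, 1.24 to 1.31 in vehicle flies and 0.892 to 0.916 in Day 0 flies. Marker genes moved with the groups, since all 4 muscle and all 4 neuronal genes listed fell and all 4 germline genes rose in vehicle flies against Day 0 (edgeR, adjusted p under 0.05). The summed level of 4 muscle genes was 29390.5 to 38089 CPM in CHX flies, 283 to 570 CPM in vehicle flies and 28853 to 36157 CPM in Day 0 flies. The summed level of 4 neuronal genes was 317 to 492 CPM in CHX flies, 69.6 to 147 CPM in vehicle flies and 294 to 498 CPM in Day 0 flies. The summed level of 4 germline genes was 61.8 to 98.9 CPM in CHX flies, 297 to 370 CPM in vehicle flies and 64.0 to 120 CPM in Day 0 flies. The summed level of 4 eggshell genes, all of which rose in vehicle flies against Day 0, was 0.758 to 17.0 CPM in CHX flies, 1664 to 8514 CPM in vehicle flies and 69.3 to 128 CPM in Day 0 flies, and 2 of them fell in CHX against Day 0 flies. Of 4 fat body genes 1 rose and 2 fell in vehicle flies against Day 0. Genes of the testis and the male accessory gland were near 0 in every group. They summed to at most 0.514 CPM in CHX flies, 0.371 CPM in vehicle flies and 6.58 CPM in Day 0 flies, with Mst84Da and SP at 0 throughout. These values cannot tell apart fewer cells of a type, less RNA per cell or any other difference in what the samples held.

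Transposons are DNA sequences that move within a genome. LTR retrotransposons such as roo and the gypsy-like elements copy themselves through RNA and carry long terminal repeats, non-LTR retrotransposons such as Doc copy themselves through RNA without such repeats, and DNA transposons move as DNA. INE-1 is an old, nonautonomous DNA element related to the rolling-circle elements, scattered in very many short copies, while HeT-A and TART are non-LTR elements that maintain the chromosome ends of Drosophila in place of telomerase. In the fly ovary the piRNA pathway keeps transposons silent. Small RNAs made from transposon fragments guide Piwi proteins, which cut transposon RNA in the cytoplasm and silence insertions in the nucleus, and the siRNA pathway acts mainly in somatic cells. An insertion inside a gene lies within that gene's transcript, so a read over it may come from the element's own RNA or from the host transcript, above all from introns not yet removed.

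The 416 insertions belonged to 71 of the 128 element families annotated. INE-1 was the most numerous family with 123 of its 2234 insertions, followed by roo with 56 of 136 and Doc with 36 of 68. The 1360 family had 24 members of 303, HeT-A had 6 of 26 and TART-A had 1 of 10. By class, 194 members were DNA elements, 124 were LTR and 98 were non-LTR elements. Their length ran between 20 and 32921 bases with a median of 1083, against a median of 328 over all annotated insertions, and longer features collect more reads.

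Most of the selected insertions lay inside genes. In the annotation, 272 members (65.4%) were within introns, 31 (7.45%) shared bases with an exon and 113 (27.2%) were outside genes, while over all insertions in the table the shares were 42.8% intronic, 7.13% exonic and 50% outside genes. Of the 303 members inside genes, 26 lay inside more than 1 gene. Of the intronic members, 156 ran on the same strand as the gene and 116 on the opposite strand. Chromosome 4, a small chromosome that is largely heterochromatic, carried 106 members (25.5%) but 10.4% of all insertions in the table. Because reads with more than 1 position in the genome were kept in a row of their own, between 3.10% and 6.27% of each library, near-identical copies of a family can be counted only where a read differs between them. All positions given are those of the annotation. No source used here shows that the W1118 flies carry each copy there, so its reads may come from a copy elsewhere.

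Summed over the members, insertion RNA was lower in vehicle flies than in both other groups on the TMM scale. The 100-count rule sums over all 18 libraries. An insertion high in both CHX and Day 0 flies thus passes it more readily than one high in vehicle flies alone. Over insertions under 100 counts, vehicle differed from Day 0 flies by -0.29 and CHX from vehicle flies by 0.27 (log2). The part of the selection in the members' difference was not tested. The summed level of the 416 members was 411, 467 and 500 CPM in CHX flies (lowest, median and highest library), 223, 253 and 288 CPM in vehicle flies and 391, 457 and 489 CPM in Day 0 flies. On this TMM scale every vehicle library was below every library of the other groups, and the CHX and Day 0 libraries overlapped. With library sizes alone the ranges were 362 to 455 CPM in CHX flies, 290 to 378 CPM in vehicle flies and 352 to 447 CPM in Day 0 flies, so that vehicle replicate 5 stood above some libraries of both other groups. On the log2 scale the summed level differed by -0.82 between vehicle and Day 0 flies, by 0.87 between CHX and vehicle flies and by 0.05 between CHX and Day 0 flies, and with library sizes alone the first pair of differences was -0.32 and 0.32. Without the 3 members with the most counts, which held 19.4% of all member counts, the differences on the TMM scale were -0.74, 0.79 and 0.05. The libraries come in 2 series of 3 per group, told apart by a hyphen in their names. The summed level differed between vehicle and Day 0 flies by -0.87 in the series with a hyphen and by -0.75 in the other.

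Between vehicle and Day 0 flies, 152 of the 255 insertions tested fell and 21 rose, by edgeR's quasi-likelihood test with p-values adjusted after Benjamini and Hochberg over the 11051 features of the table that were tested. The members called were 67.8% of those tested, beside 82.9% of all features tested, of which 41.8% rose and 41.1% fell. The median log2 fold change of the members tested was -0.98, against -0.0043 over all features. Among the called members, 117 fell by more than 2-fold and 11 rose by more than 2-fold. The libraries of the groups did not overlap for 82 members, 73 of them below and 9 above in vehicle flies, a share of 32.2% beside 66.3% of all features tested. The filter on low values keeps an insertion that is high in any of the groups, so these counts describe the insertions that passed.

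Between CHX and vehicle flies, 158 of the 255 insertions rose and 18 fell by the same test. They were 69.0% of the members tested, beside 83.4% of all features, of which 42% rose and 41.3% fell. The median log2 fold change was 1.10 for the members and 0.02 for all features, and the libraries did not overlap for 80 members (31.4%, beside 66% of all features). The same vehicle libraries enter both comparisons, so the 139 members that fell in vehicle flies against Day 0 and rose in CHX flies against vehicle, and the 16 with the opposite signs, are not independent findings.

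Between CHX and Day 0 flies, 0 of the 255 insertions passed an adjusted p of 0.05 by edgeR's quasi-likelihood test, and 0 by DESeq2. An unadjusted p under 0.05 was reached by 9 of them with edgeR and 7 with DESeq2, and 0.552% of all features passed the adjusted threshold. The median log2 fold change of the members was 0.02 and the median standard error was 0.35. The libraries overlapped for every member tested, beside 1.05% of all features whose libraries did not overlap. The log2 fold changes of the members, none of them called, ran from -1.86 to 1.18. Differences well above the median error could thus go uncalled, and the 0 calls do not exclude them.

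The level of insertions depends on how libraries are scaled. With library sizes alone in place of TMM factors, 92 members fell and 37 rose in vehicle flies against Day 0, and 94 rose and 38 fell in CHX flies against vehicle. That scaling moved the median of all features by 0.49 for vehicle against Day 0 and by -0.55 for CHX against vehicle. Relative to the median of all features, the members' median stood at -0.97 under TMM, a difference that a change of scaling leaves nearly fixed by construction.

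The 12 members with the highest CPM held 36.5% of the member counts. Their levels are not scaled by length, so each is compared between groups and not with another insertion. Doc{}CHKov1[Doc1420], a 4516-base Doc copy on 3R from 25324412 to 25328927, shares 5 bases with an exon of CHKov1 on the same strand, a gene whose coding sequence this copy is known to interrupt and which has been linked to pesticide and sigma virus resistance. It was at 26.5, 29.4 and 48.8 CPM (lowest, median, highest) in CHX flies, 5.55, 6.08 and 9.16 CPM in vehicle flies and 26.1, 34.9 and 44.2 CPM in Day 0 flies. All vehicle libraries were below all others. The log2 fold change of vehicle over Day 0 was -2.32 with a standard error of 0.20 (adjusted p = 2.26e-09, edgeR) and that of CHX over vehicle was 2.31 (adjusted p = 2.23e-09). The level of CHKov1 itself changed by -2.15 between vehicle and Day 0 flies.

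The most counted insertion was roo{}339, 9157 bases long on 2L from 10946999 to 10956155, within an intron of dpr2 on the opposite strand, a gene for an immunoglobulin-domain protein of the cell surface. It was at 19.1, 33.6 and 41.9 CPM in CHX flies, 15.8, 19.5 and 23.7 CPM in vehicle flies and 20.1, 26.2 and 38.3 CPM in Day 0 flies. The groups overlapped, and vehicle libraries were among the lowest. The log2 fold change was -0.49 with a standard error of 0.18 for vehicle over Day 0 (adjusted p = 0.0201, edgeR) and 0.67 for CHX over vehicle (adjusted p = 0.00277), and the first lost its call without Day 0 replicate 6 (adjusted p = 0.059) or vehicle replicate 5 (adjusted p = 0.053). With library sizes alone neither was called (0.0010 and 0.10), nor in the libraries with a hyphen (-0.36 and 0.36). The host gene dpr2 averaged 2.47 CPM in CHX flies, 0.765 CPM in vehicle flies and 2.34 CPM in Day 0 flies.

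Rt1b{}990, a non-LTR copy on 3L from 13574910 to 13580104, lies in an intron of bru3, which encodes an RNA-binding protein of the Bruno family, on the opposite strand. It was at 17.2, 31.5 and 41.8 CPM in CHX flies, 12.8, 14.8 and 17.4 CPM in vehicle flies and 24.0, 28.4 and 36.1 CPM in Day 0 flies. Vehicle libraries were below all Day 0 libraries and overlapped CHX libraries by a narrow margin. The log2 fold change of vehicle over Day 0 was -0.91 with a standard error of 0.19 (adjusted p = 2.17e-04, edgeR), or -0.42 with library sizes alone (adjusted p = 0.027), and bru3 changed by -1.27.

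Outside genes, Doc{}1407 lies on 3R from 22881256 to 22884895, 14389 bases upstream of klg, a gene for an adhesion protein of the immunoglobulin family. It was at 11, 18.2 and 22.9 CPM in CHX flies, 7.45, 9.0 and 10.1 CPM in vehicle flies and 12, 15.1 and 18.9 CPM in Day 0 flies. Vehicle libraries were below all others, and the log2 fold change of vehicle over Day 0 was -0.80 with a standard error of 0.18 (adjusted p = 3.78e-04, edgeR), and -0.31 with library sizes alone, where the call was lost (adjusted p = 0.079). Cr1a{}2411, on 3L from 23716824 to 23720346, lies 135 bases past the end of the splicing factor gene Spf30. It was at 10.5, 14.6 and 17.7 CPM in CHX flies, 7.95, 9.03 and 10.3 CPM in vehicle flies and 11, 12.4 and 13.6 CPM in Day 0 flies, again with no overlap of the vehicle libraries with the others. Its log2 fold change of vehicle over Day 0 was -0.43 (adjusted p = 0.00285, edgeR), while Spf30 changed by 0.64, and with library sizes alone the sign of the insertion's change turned (0.06).

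The other abundant insertions that fell included INE-1{}3381 in an intron of CaMKII and accord{}818 on 2R in an intron of CG17574. INE-1{}3381, on chromosome 4 from 1038710 to 1039810, was at 3.21, 5.25 and 9.42 CPM in CHX flies, 1.26, 2.17 and 4.17 CPM in vehicle flies and 5.02, 6.83 and 9.33 CPM in Day 0 flies. Its vehicle libraries were below all Day 0 libraries, at -1.57 on the log2 scale (standard error 0.30, adjusted p = 8.18e-05, edgeR). The level of accord{}818 was 7.23, 9.05 and 12.5 CPM in CHX flies, 0.583, 2.43 and 9.44 CPM in vehicle flies and 3.54, 10.2 and 11.8 CPM in Day 0 flies. Its groups overlapped widely, and its change of -1.38 on the log2 scale (standard error 0.46, adjusted p = 0.0102, edgeR) was -0.42 in the libraries without a hyphen (adjusted p = 0.46) and -0.87 with library sizes alone (adjusted p = 0.092). H{}1735, a copy of the DNA element hobo on 3R from 7090364 to 7091141, differed least among the 12. It was at 3.19, 4.16 and 4.80 CPM in CHX flies, 2.86, 3.63 and 4.20 CPM in vehicle flies and 3.80, 4.63 and 5.76 CPM in Day 0 flies, with a log2 fold change of -0.37 for vehicle over Day 0 (adjusted p = 0.0256, edgeR) and 0.17 for CHX over vehicle (adjusted p = 0.28). With library sizes alone both signs of H{}1735 turned (0.12 and -0.37). Its call for vehicle over Day 0 was also lost without Day 0 replicate 3 or 5, without vehicle replicate 2 or 6 (adjusted p between 0.056 and 0.076), and in either name series alone (adjusted p = 0.12 and 0.19).

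**Figure D1:**
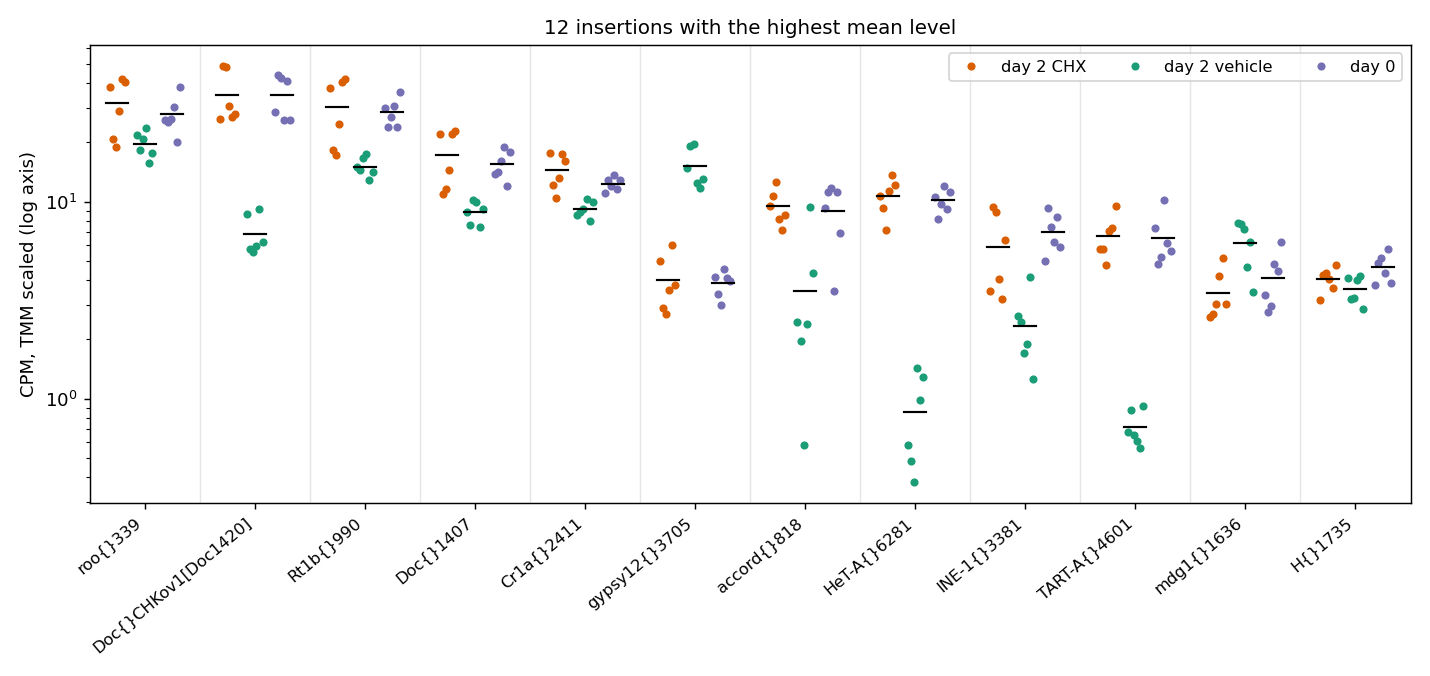
CPM (log axis) of the 12 insertions with the highest CPM in each of the 18 libraries, with CHX flies left of vehicle flies and Day 0 flies, and a black bar at each mean. All vehicle libraries lie below the others for 5 insertions (Doc{}CHKov1[Doc1420], Doc{}1407, Cr1a{}2411, HeT-A{}6281 and TART-A{}4601) and above them for gypsy12{}3705 (11.7 to 19.7 CPM), and the other 6 overlap with at least 1 group.

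Among the 12 most counted members, 2 rose in vehicle flies. gypsy12{}3705, on 2R, shares 48 bases with an exon of d4, a gene for a chromatin protein with PHD fingers, on the same strand. It was at 2.7, 3.69 and 6.02 CPM in CHX flies, 11.7, 13.9 and 19.7 CPM in vehicle flies and 2.99, 4.02 and 4.56 CPM in Day 0 flies. Vehicle libraries were above all others. The log2 fold change was 1.98 with a standard error of 0.20 for vehicle over Day 0 (adjusted p = 1.94e-08, edgeR) and -1.93 for CHX over vehicle (adjusted p = 2.69e-08), beside 1.69 and -1.84 for d4. mdg1{}1636 is annotated over 32921 bases of X, from 21523177 to 21556097, where it overlaps 11 other insertions. It was at 2.59, 3.03 and 5.17 CPM in CHX flies, 3.49, 6.79 and 7.83 CPM in vehicle flies and 2.75, 3.89 and 6.25 CPM in Day 0 flies, with overlapping groups. Its log2 fold change of vehicle over Day 0 was 0.65 (adjusted p = 0.0177, edgeR), but it was -0.11 in the libraries without a hyphen and the call was lost without Day 0 replicate 2 (adjusted p = 0.052) and with upper-quartile factors (adjusted p = 0.11).

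The largest falls in vehicle flies were in introns of genes that themselves fell, among them TpnC4 and TpnC41C, which encode forms of troponin C, the calcium sensor of muscle. INE-1{}4260, on 2R in an intron of TpnC4 and also inside Ugt50B3, was at 1.15, 1.36 and 2.24 CPM in CHX flies, 0, 0.017 and 0.097 CPM in vehicle flies and 0.775, 1.29 and 2.19 CPM in Day 0 flies. All vehicle libraries were below all others. Its log2 fold change of vehicle over Day 0 was -5.08 (standard error 0.50, adjusted p = 1.35e-08, edgeR), beside -7.27 for TpnC4. Cr1a{}2558, in an intron of TpnC41C on 2R, was at 0.947, 1.40 and 3.23 CPM in CHX flies, 0, 0.088 and 0.194 CPM in vehicle flies and 1.27, 2.43 and 3.16 CPM in Day 0 flies. INE-1{}2041 in the same gene was at 0.299, 0.888 and 2.28 CPM in CHX flies, 0, 0.029 and 0.071 CPM in vehicle flies and 0.490, 1.44 and 2.17 CPM in Day 0 flies. For both, vehicle libraries were below all others, with log2 fold changes of -4.42 and -5.30 beside -5.49 for TpnC41C. INE-1{}4264, also in TpnC4, had 104 counts in CHX flies, 1 in vehicle flies and 134 in Day 0 flies. Vehicle flies held 6 and 7 counts of INE-1{}2041 and INE-1{}4260 in all 6 libraries together, so these folds rest on few reads, and the muscle genes listed above differed between the same groups; their part in the falls was not tested.

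INE-1{}1753, on 2L from 27530 to 27788 in an intron of the chitin deacetylase gene Cda5, was at 0.576, 0.834 and 1.77 CPM in CHX flies, 0.034, 0.068 and 0.151 CPM in vehicle flies and 0.377, 1.32 and 1.53 CPM in Day 0 flies. It stood below all other libraries in vehicle flies, with a log2 fold change of -3.70 (adjusted p = 9.12e-08, edgeR) beside -5.45 for Cda5. A pair of neighbouring insertions on X, Rt1c{}10 from 1024762 to 1025624 and baggins{}11 from 1025983 to 1026266, lies inside 3 overlapping genes, su(w[a]), CG11638 and CG32814. Rt1c{}10 was at 0.0997, 0.683 and 5.08 CPM in CHX flies, 0, 0.032 and 0.084 CPM in vehicle flies and 0.792, 1.71 and 5.11 CPM in Day 0 flies. baggins{}11 was at 0.178, 0.984 and 2.51 CPM in CHX flies, 0, 0.060 and 0.151 CPM in vehicle flies and 0.302, 0.907 and 3.12 CPM in Day 0 flies. Both were lowest in every vehicle library and spread widely within the other groups, with log2 fold changes of -5.93 (standard error 1.01) and -4.16 (standard error 0.82). The splicing regulator gene su(w[a]) changed by -0.56 and CG11638 by -2.07.

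The largest rise was outside genes. flea{}3210, an LTR copy on X from 22573473 to 22574665, lies 8969 bases past the end of the chitin deacetylase gene Cda4. It was at 0, 0.019 and 0.143 CPM in CHX flies, 2.52, 3.69 and 4.47 CPM in vehicle flies and 0, 0.039 and 0.155 CPM in Day 0 flies. Vehicle libraries were above all others, which held 10 counts in CHX flies and 9 in Day 0 flies, against 691 in vehicle flies. The log2 fold change was 6.0 (standard error 0.50, adjusted p = 1.42e-09, edgeR) for vehicle over Day 0 and -5.76 for CHX over vehicle, while Cda4 changed in the other direction, by -9.01 and 9.16. diver2{}5706, on 2R and 577 bases past lncRNA:CR45472, was at 0.514, 0.840 and 1.25 CPM in CHX flies, 3.02, 4.08 and 5.11 CPM in vehicle flies and 0.639, 0.941 and 1.17 CPM in Day 0 flies. It was above all other libraries in vehicle flies, with a log2 fold change of 2.10 (adjusted p = 1.12e-08, edgeR), and the neighbouring lncRNA had a mean of 0.224 CPM or less in each group.

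The other insertions that rose changed less. INE-1{}5232, on 3R from 5676688 to 5677200 in an intron of the autophagy gene Atg17, was at 0.543, 0.884 and 1.29 CPM in CHX flies, 1.04, 1.36 and 1.86 CPM in vehicle flies and 0.613, 0.726 and 0.878 CPM in Day 0 flies. Its vehicle libraries were above all Day 0 libraries (log2 fold change 0.91, adjusted p = 1.08e-04, edgeR), and Atg17 changed by 0.72. gypsy10{}3099, on 2R past the endoplasmic reticulum stress factor gene Atf6, was at 0.498, 1.40 and 2.08 CPM in CHX flies, 1.72, 1.92 and 2.30 CPM in vehicle flies and 0.754, 1.14 and 1.71 CPM in Day 0 flies. It was just above all Day 0 libraries in vehicle flies, with a log2 fold change of 0.74 (adjusted p = 0.012, edgeR), while CHX over vehicle gave -0.49 (adjusted p = 0.084). The first call was lost in the libraries with a hyphen (adjusted p = 0.20) and with upper-quartile factors (adjusted p = 0.051), and CHX over vehicle was called with library sizes alone (-1.02, adjusted p = 0.0017), with the replicate number as a block (adjusted p = 0.048) and without CHX replicate 3 (adjusted p = 0.041). gypsy12{}2629, on 2L from 22280499 to 22292574, was at 0.933, 1.16 and 1.39 CPM in CHX flies, 1.42, 1.92 and 5.18 CPM in vehicle flies and 0.639, 1.36 and 1.53 CPM in Day 0 flies. Vehicle and CHX libraries did not overlap (log2 fold change of CHX over vehicle -0.97, adjusted p = 0.00361, edgeR), but the call was lost in the libraries with a hyphen (-0.64, adjusted p = 0.092), and vehicle replicate 5, the highest, belongs to the other series. rooA{}1506, on chromosome 4 in an intron of the calcium pump gene PMCA, was at 2.02, 2.34 and 3.08 CPM in CHX flies, 3.26, 3.98 and 6.83 CPM in vehicle flies and 1.63, 2.40 and 3.58 CPM in Day 0 flies. Vehicle libraries were above all CHX libraries, and the insertion's log2 fold change of CHX over vehicle was -0.83 while that of PMCA was 0.77.

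**Figure D2:**
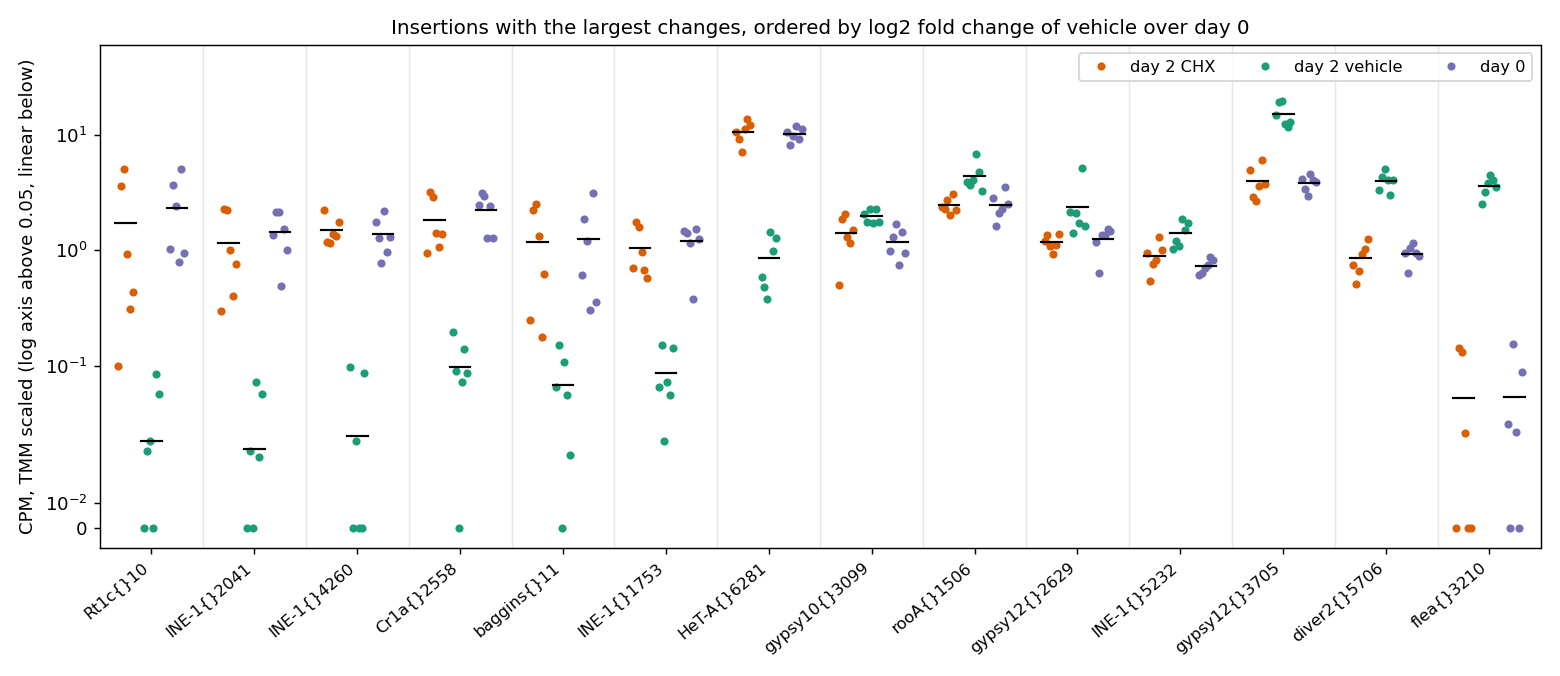
CPM of the insertions with the largest changes in each of the 18 libraries (axis log above 0.05 CPM and linear below), ordered by the log2 fold change of vehicle over Day 0, with the mean of each group as a black bar. CHX and Day 0 libraries share their range in every insertion drawn, and vehicle libraries sit below them at the low end of that order, as for Rt1c{}10 (0 to 0.084 CPM), and above them at the high end, as for flea{}3210 (2.52 to 4.47 CPM).

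Insertions inside genes were then set beside their host genes. Of 166 intronic members tested, 103 fell and 11 rose in vehicle flies against Day 0, with a median log2 fold change of -1.08. Of 73 outside genes, 42 fell and 6 rose with a median of -0.85, and of 16 sharing bases with an exon, 7 fell and 4 rose with a median of -0.30. Outside genes, the 30 members within 1000 bases past the end of a gene included 18 that fell and 3 that rose (median -1.01), and the 11 within 1000 bases before the start of a gene included 7 that fell and 0 that rose (median -1.53). The 32 members farther than 1000 bases from any gene included 17 that fell and 3 that rose (median -0.78), and the 16 farther than 5000 bases 6 that fell and 2 that rose (median -0.78). Falls outnumbered rises in each of these sets, and 41.1% of all features tested fell.

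The calls of intronic insertions were set against those of their host genes. Where the host gene fell in vehicle flies, 61 of 76 intronic members fell and 2 rose, with a median of -1.43 beside -1.17 for the genes, and 40 of the 76 stood below their gene. Where the host gene rose, 25 of 58 intronic members fell and 7 rose, with a median of -0.66 beside 0.91 for the genes, and 54 of the 58 stood below their gene. Where the host gene was not called, 13 of 26 fell and 1 rose, with a median of -0.93 beside -0.12 for the genes, and 21 of the 26 stood below their gene. Of all features tested, 41.1% fell and 41.8% rose. The 25 falls among the 58 members of genes that rose were near that share, and the 7 rises were below it. In CHX against vehicle, which uses the same vehicle libraries, 20 of 58 intronic members rose and 6 fell where the gene fell, and 68 of 78 rose and 1 fell where the gene rose. Beside these, 42% of all features rose and 41.3% fell.

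The change of an insertion and that of its gene were related inside introns, on both strands. Across members, Pearson's r of the log2 fold changes of vehicle over Day 0 was 0.58 and Spearman's rho 0.49 over 93 intronic members on the gene's strand, and 0.65 and 0.46 over 67 on the opposite strand. The sign was shared with the gene in 64 of the 93 and in 40 of the 67. Over the 6 exonic members on the gene's strand r was 0.90 and all 6 shared the sign, and over 7 on the opposite strand r was 0.47. Outside genes, with the nearest gene in place of a host, r was -0.45 and rho 0.40 over 27 members on the gene's strand and r was 0.12 and rho 0.11 over 26 on the opposite strand. These points share libraries, and some share a gene. No source used here gives the strand setting of the counting, so a read over an insertion cannot be assigned to the element or to the host transcript.

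**Figure D3:**
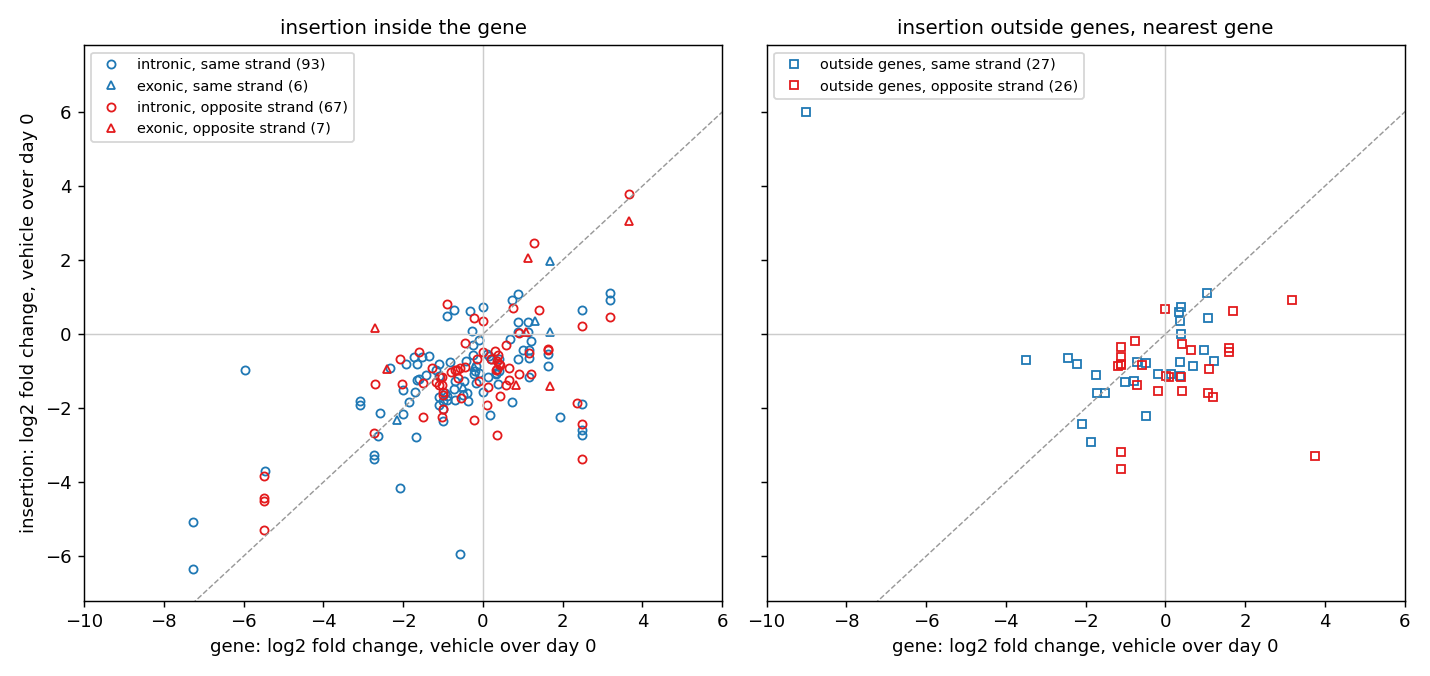
log2 fold change of vehicle over Day 0 of each tested insertion (vertical axis) against that of its host gene (left) or of the nearest gene (right), with equality dashed, blue for the gene's strand and red for the opposite strand, circles intronic, triangles exonic and squares outside genes. Inside genes the points climb with the gene but lie mostly below the dashed line where the gene rose (54 of 58 intronic insertions), and outside genes flea{}3210 stands apart with 6.0 beside -9.01 for Cda4.

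Genes that hold several insertions showed whether neighbours within a transcript moved together. CaMKII, a calcium-dependent kinase of neurons and muscle on chromosome 4, held 6 tested members, all of which fell, with log2 fold changes between -2.34 and -1.57 beside -1.0 ± 0.094 (SE) for the gene. TpnC41C held 4, all of which fell (-5.30 to -3.82, beside -5.49 for the gene). The adhesion gene nrm held 3 that fell (-3.39 to -2.67, beside -2.73), the secretory vesicle gene Cadps held 4 that fell (-1.91 to -1.13, beside -1.11), and the kinase gene CaMKI held 3 that fell (-1.78 to -0.98, beside -0.71). In these 5 genes insertions and gene changed in the same direction, and 41.1% of all features tested fell.

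AGO3, the Argonaute protein that pairs with Aubergine in the ping-pong cycle of piRNA amplification, differed in direction from most of the insertions in its introns. The gene was at 13.9, 17.7 and 20.4 CPM in CHX flies, 89.3, 128 and 147 CPM in vehicle flies and 19.7, 21.5 and 26.7 CPM in Day 0 flies, above all other libraries in vehicle flies. Its log2 fold change of vehicle over Day 0 was 2.48 ± 0.11 (SE), yet 5 of the 7 tested insertions in its introns fell and 0 rose. INE-1{}5808, on 3L from 23579845 to 23580227, was at 1.25, 1.56 and 2.64 CPM in CHX flies, 0.0686, 0.276 and 0.420 CPM in vehicle flies and 1.13, 1.70 and 2.14 CPM in Day 0 flies. It was below all other libraries in vehicle flies, at -2.59 on the log2 scale (standard error 0.29, adjusted p = 1.10e-07, edgeR). Idefix{}1817, Stalker4{}1800, 1360{}5894 and mdg3{}5851 fell by 2.74, 2.44, 1.88 and 3.38 on the log2 scale, and 4 of the 5 that fell lie between 23578165 and 23580227, where mdg3{}5851 and INE-1{}5808 abut and a read may cover both. The 2 members not called, jockey{}4145 (0.66, adjusted p = 0.19) and rooA{}4668 (0.22, adjusted p = 0.62), lie farther along the gene on either side, from 23556291 and from 23637625.

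Members of further hosts moved against their gene, with it, or in both directions. The kinase gene Stlk rose by 1.15 while 2 of its 4 members fell (lowest -1.16), and gus, whose protein binds Vasa in the germ plasm, rose by 1.63 while 1 of its 4 members fell (gypsy10{}3098, -0.43, adjusted p = 0.045, edgeR). Library sizes alone moved the median of all features by 0.49 in this comparison, more than the size of the change of gypsy10{}3098. Slip1 rose by 0.41 while its 3 members fell (lowest -0.99). Marf1, a regulator of RNA in meiotic oocytes, rose by 3.18, and of its 3 members Idefix{}2603 rose (1.11, adjusted p = 0.0058, edgeR) while the other 2 were not called (0.93 and 0.47). PMCA fell by 0.89, and of its 4 members INE-1{}5345 and INE-1{}5347 fell (-1.77 and -1.68), rooA{}1506 rose (0.82) and Tc1-2{}5456 was not called (0.50).

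**Figure D4:**
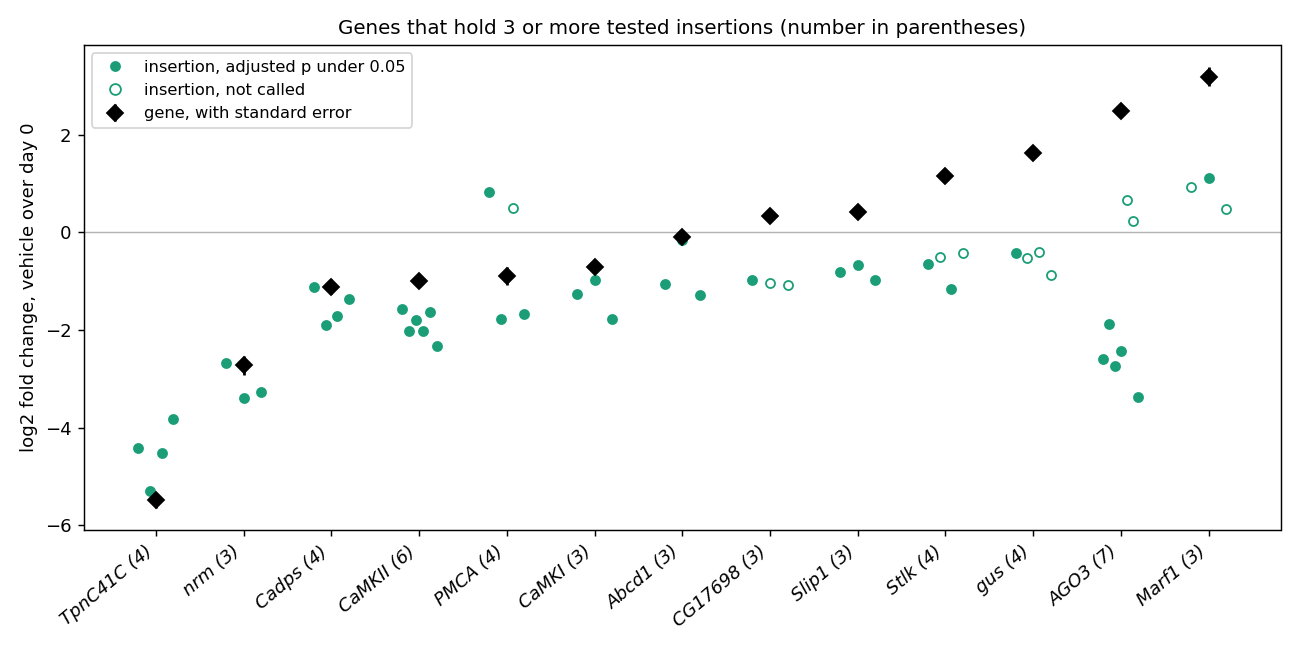
log2 fold change of vehicle over Day 0 of each tested insertion in the 13 genes that hold at least 3 of them, filled where the adjusted p was under 0.05, with the gene itself as a black diamond with its standard error. In CaMKII, TpnC41C, nrm, Cadps and CaMKI the insertions lie on the same side of 0 as the gene, and in AGO3 the gene is at 2.48 while 5 insertions lie between -3.38 and -1.88.

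A few insertions in piwi, AGO2 and Srg3 were chosen for description after their values were seen. INE-1{}6238 in an intron of piwi, which encodes the nuclear Piwi protein, was at 0.0747, 0.141 and 0.314 CPM in CHX flies, 0.572, 0.926 and 1.31 CPM in vehicle flies and 0, 0.167 and 0.388 CPM in Day 0 flies. It was above all other libraries in vehicle flies, with a log2 fold change of 2.46 beside 1.29 for piwi. S{}AGO2[S1008], in an intron of the siRNA Argonaute gene AGO2, was at 0.896, 1.12 and 1.92 CPM in CHX flies, 1.71, 2.43 and 3.5 CPM in vehicle flies and 1.16, 1.54 and 1.95 CPM in Day 0 flies. Its groups overlapped, with a log2 fold change of 0.74 for vehicle over Day 0 (adjusted p = 0.00761, edgeR) beside 0.01 for AGO2. INE-1{}2147, which shares bases with an exon of Srg3, was at 0.0286, 0.0427 and 0.0892 CPM in CHX flies, 0.364, 0.669 and 1.39 CPM in vehicle flies and 0, 0.0785 and 0.155 CPM in Day 0 flies, a log2 fold change of 3.04 for vehicle over Day 0 beside 3.67 for Srg3.

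Reads were also summed over all insertions of each family, members or not, and the families were tested in a table with all other genes. Between vehicle and Day 0 flies 35 of 80 families tested fell and 6 rose, 51.2% of those tested beside 83% of all features in that table, of which 41.9% rose and 41.1% fell. Between CHX and vehicle flies 36 rose and 7 fell (beside 83.3% of all features called, 41.9% up and 41.4% down), and between CHX and Day 0 flies 0 were called by edgeR and 0 by DESeq2, with 3 at an unadjusted p under 0.05 by either tool and 0.561% of all features called. The median log2 fold change over the families was -0.60 for vehicle over Day 0 and 0.56 for CHX over vehicle. With library sizes alone, 18 families rose and 17 fell between vehicle and Day 0 flies, and 16 rose and 22 fell between CHX and vehicle flies. The family medians were then -0.09 and 0.01, beside 0.49 and -0.53 over all features in the fit of single insertions. In 39 of the 80 families a single copy held more than 50% of the counts, so a family total often follows that copy.

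The copies of Doc fell in vehicle flies inside and outside genes. The family's summed level was 69.4 ± 7.97 CPM in CHX flies, 20.9 ± 1.80 CPM in vehicle flies and 69.2 ± 9.54 CPM in Day 0 flies (SD, n = 6 each). Vehicle libraries were below all others, and the log2 fold change of vehicle over Day 0 was -1.73 with a standard error of 0.095 (adjusted p = 3.90e-12, edgeR). On the TMM scale all 16 tested Doc members fell in vehicle flies, by between 0.80 and 2.32 on the log2 scale with a median of -1.89, and all 16 rose in CHX flies against vehicle. Of all features tested, 41.1% fell in the first comparison and 42% rose in the second. Of the 16 Doc members, 8 are outside genes, 7 are intronic and 1 is exonic. Doc{}819, in an intron of the condensin gene Cap-G on 2R, changed by -1.85 while Cap-G changed by 2.35, and Doc{}359, in an intron of CG7110, changed by -2.23 while CG7110 changed by 1.93. Doc{}350, in an intron of MRP, was at 0.401, 0.690 and 0.857 CPM in CHX flies, 0.0647, 0.133 and 0.196 CPM in vehicle flies and 0.339, 0.694 and 1.06 CPM in Day 0 flies. It did not overlap in vehicle flies with the other groups (-2.32, adjusted p = 3.67e-06, edgeR), and MRP was not called (-0.21, adjusted p = 0.25).

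INE-1 had a summed level of 128 ± 35.9 CPM in CHX flies, 65.1 ± 11 CPM in vehicle flies and 131 ± 24.5 CPM in Day 0 flies (SD, n = 6 each). Its log2 fold change of vehicle over Day 0 was -1.0 (standard error 0.17, adjusted p = 1.72e-05, edgeR), or -0.49 with library sizes alone (adjusted p = 0.021), and of its 77 tested members 51 fell and 4 rose. The roo family was at 64.2 ± 14.8 CPM in CHX flies, 34.2 ± 4.97 CPM in vehicle flies and 55.2 ± 9.24 CPM in Day 0 flies, and 15 of its 24 tested members fell while 0 rose. Its log2 fold change was -0.69 (adjusted p = 1.44e-04, edgeR), and with library sizes alone it was not called (-0.18, adjusted p = 0.18). Cr1a and 1360 both changed by -0.61 for vehicle over Day 0 with 6 of 11 and 11 of 18 tested members that fell. With library sizes alone neither family was called (-0.10 and -0.11). Beside these counts of members, 41.1% of all features tested fell and 41.8% rose. For the Rt1b family, at 33.0 ± 10.7 CPM in CHX flies, 18.2 ± 1.81 CPM in vehicle flies and 31.8 ± 4.08 CPM in Day 0 flies, the copy Rt1b{}990 held 88.2% of the counts, and without it the sign of the log2 fold change of vehicle over Day 0 turned (-0.80 with it, 0.04 without). With library sizes alone the Rt1b family was not called (-0.30, adjusted p = 0.060).

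The telomeric elements split by copy. HeT-A{}6281 and TART-A{}4601, only 20 and 309 bases long, lie on chromosome 4 from 1272114 to 1272133 and from 1272188 to 1272496, 355 and 429 bases past the end of Cadps and on the opposite strand. HeT-A{}6281 was at 7.15, 11 and 13.7 CPM in CHX flies, 0.377, 0.781 and 1.43 CPM in vehicle flies and 8.18, 10.2 and 12 CPM in Day 0 flies. TART-A{}4601 was at 4.78, 6.44 and 9.55 CPM in CHX flies, 0.560, 0.665 and 0.914 CPM in vehicle flies and 4.86, 5.90 and 10.2 CPM in Day 0 flies. Both were below all other libraries in vehicle flies, with log2 fold changes of -3.63 (standard error 0.20, adjusted p = 4.02e-12, edgeR) and -3.18 (standard error 0.20, adjusted p = 2.98e-11), beside -1.11 for Cadps. The 4 longer HeT-A members farther out on chromosome 4 and HeT-A{}4795 on X had log2 fold changes of -1.28 to -0.35, of which HeT-A{}6278 (-0.85, adjusted p = 0.00692) and HeT-A{}4795 (-1.28, adjusted p = 0.00573) were called.

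The HeT-A family total was 24.6 ± 2.22 CPM in CHX flies, 8.80 ± 5.61 CPM in vehicle flies and 23.7 ± 3.22 CPM in Day 0 flies (SD, n = 6 each; log2 fold change of vehicle over Day 0 -1.44, adjusted p = 3.08e-05, edgeR, or -0.93 with library sizes alone, adjusted p = 0.0028). Vehicle replicate 5 stood apart at 20.2 CPM, while the other vehicle libraries were between 5.99 and 7.53 CPM. Its higher level came with the 5 longer copies, at 1.06 to 6.05 CPM in that library, and not with HeT-A{}6281 (0.98 CPM). The TART-A total, of which TART-A{}4601 held 99.8%, changed by -3.15.

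The families that rose in vehicle flies were few. gypsy12 was at 6.37 ± 1.39 CPM in CHX flies, 18.8 ± 2.97 CPM in vehicle flies and 6.24 ± 0.801 CPM in Day 0 flies (SD, n = 6 each), with a log2 fold change of 1.59 for vehicle over Day 0 (adjusted p = 5.53e-09, edgeR), and gypsy12{}3705 at d4 held 73.4% of its counts. The others were Helena (3.17), flea (2.16), diver2 (1.49), gypsy8 (0.43) and S (0.36), each at a mean of 5.14 CPM or less in every group, and Helena with 0 members. Below the 10 families with the highest level, mdg3 (-2.97), Stalker2 (-2.14), blood (-2.12) and 297 (-2.11) had the lowest values with TART-A. Hobo (H) was at 15.1 ± 5.67 CPM in CHX flies, 8.14 ± 0.719 CPM in vehicle flies and 12.3 ± 3.63 CPM in Day 0 flies, and its call for vehicle over Day 0 (-0.59, adjusted p = 0.0157, edgeR) was lost without Day 0 replicate 3 (adjusted p = 0.059), in libraries without a hyphen (adjusted p = 0.19) and with library sizes alone (-0.08, adjusted p = 0.73). The foldback family FB missed the threshold for vehicle over Day 0 with edgeR (-0.27, adjusted p = 0.069) and passed it with DESeq2 (-0.32, adjusted p = 0.037), and edgeR called it with upper-quartile factors (-0.47, adjusted p = 0.0019).

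**Figure D5:**
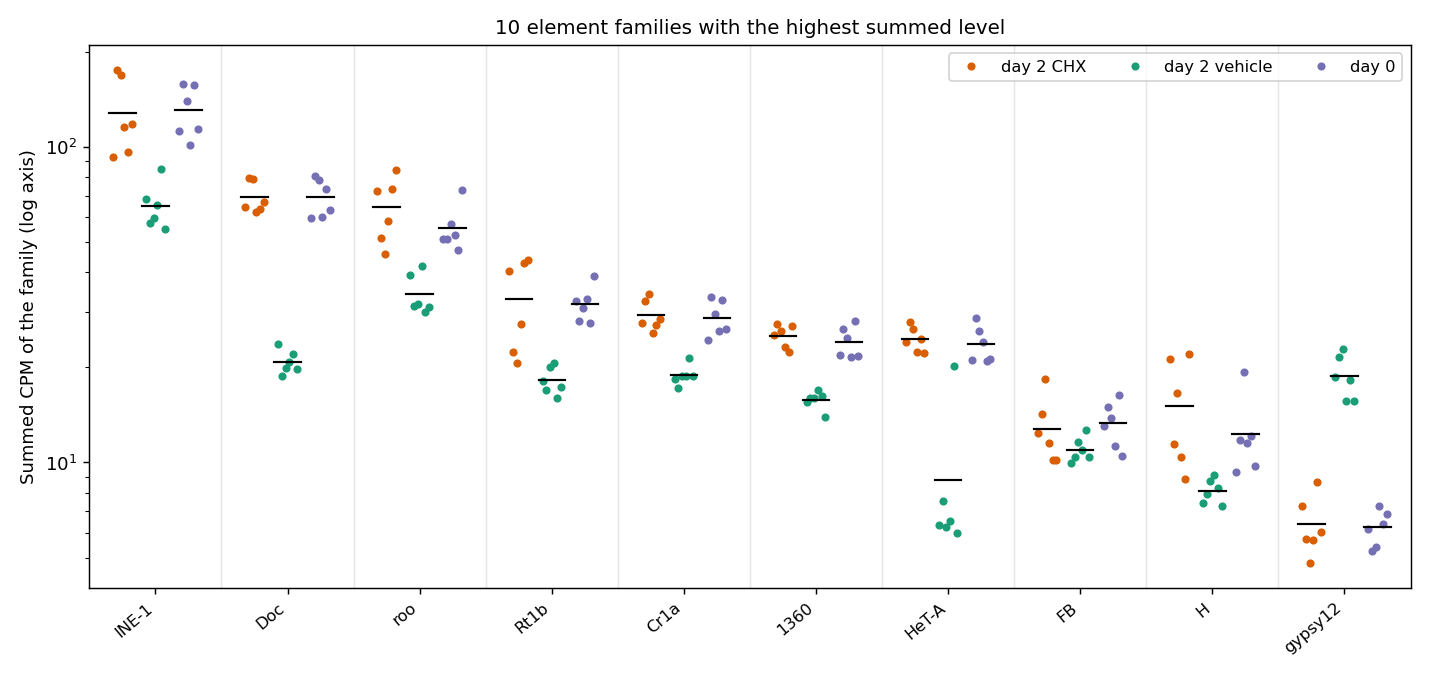
Summed CPM (log axis) of the 10 element families with the highest level in each of the 18 libraries, with CHX flies left of vehicle flies and Day 0 flies, and a black bar at each mean. Doc lies at 20.9 CPM on average in vehicle flies below 69.4 and 69.2 in the other groups, gypsy12 lies above them (18.8 CPM), and 1 vehicle library of HeT-A stands at 20.2 CPM.

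Most genes of the pathways that silence transposons rose in vehicle flies against Day 0, while most of the insertions tested fell. A link between the 2 was not tested. Between vehicle and Day 0 flies, 7 of 8 tested genes for nuclear transcription and export of piRNA precursors rose and 0 fell (median 1.36), and 9 of 11 for piRNA processing rose and 2 fell (median 1.29). In the ping-pong cycle 10 of 11 rose and 0 fell (median 2.07), and 9 of 9 for transcriptional silencing rose (median 1.56), with mael counted in both. Of the 4 siRNA genes 3 rose and 0 fell (median 0.37). With relative log expression or upper-quartile factors tud, not called under TMM (-0.43, adjusted p = 0.059), was called as a fall, and 4 siRNA genes rose with library sizes alone but 2 with upper-quartile factors (median 0.15), under which 8 of the 11 processing genes rose. The background for these counts is the same 41.8% of all features that rose. All 4 germline marker genes rose as well, of which vas is also in the ping-pong list. The processing gene armi was at 0 CPM in every group and was not tested. Between CHX and vehicle flies the same pathway lists gave 7 of 8, 9 of 11, 10 of 11, 9 of 9 and 3 of 4 genes that fell. Of all features, 41.3% fell in that comparison. Between CHX and Day 0 flies krimp alone was called in these lists (-0.69, adjusted p = 0.039, edgeR), beside 0.552% of all features.

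In the nuclear list rhi, which marks piRNA clusters in heterochromatin, was at 5.68, 6.29 and 9.64 CPM in CHX flies, 44.2, 64.4 and 79.7 CPM in vehicle flies and 5.75, 7.98 and 12.7 CPM in Day 0 flies. It was above all other libraries in vehicle flies (log2 fold change of vehicle over Day 0 2.87), as its partner del changed by 2.79, Boot by 2.30 and the export factor Nxf3 by 1.47. Among processing genes the Tudor proteins BoYb, vret and SoYb changed by 2.75, 2.19 and 2.13 and the nuclease zuc by 1.83, while fs(1)Yb, which acts in the follicle cells of the ovary, fell by 1.46 and papi fell by 0.26. Among ping-pong genes krimp was at 5.37, 6.07 and 7.76 CPM in CHX flies, 57.1, 89.3 and 119 CPM in vehicle flies and 9.03, 10.0 and 11.7 CPM in Day 0 flies. Its vehicle libraries were above all others (3.15), and squ changed by 2.88, AGO3 by 2.48 and the helicase gene spn-E by 2.07. For silencing, nxf2 changed by 2.24, the histone demethylase gene Su(var)3-3 by 2.25, mael by 2.10 and wde by 1.59. In the siRNA pathway r2d2 (0.72), loqs (0.38) and Dcr-2 (0.36) rose and AGO2 was not called (0.01).

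The insertions nearest to the threshold had too few counts for a test. pogo{}421 in fbp, roo{}28 in kirre and roo{}2620 in dpr3 had 100 counts each and were included. INE-1{}3235 in stw, INE-1{}4487 in Nep2 and hopper2{}5697 near CG8152 had 98 counts each and were not. pogo{}421 was at 0.0892, 0.178 and 0.261 CPM in CHX flies, 0.143, 0.241 and 0.343 CPM in vehicle flies and 0.0408, 0.132 and 0.325 CPM in Day 0 flies, with all groups overlapping. The 161 members that were not tested had 100 to 287 counts. Their mean level was lower in vehicle than in Day 0 flies for 137 of the 161 and lower in CHX than in vehicle flies for 25, while CHX flies were below Day 0 flies in 74.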

How the data were processed

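Whole-fly RNA-seq counts of 18 libraries were analysed. The authors deposited raw counts of reads on genes and insertions, a column for each library, of which 0 were unused. Per the submitters' processing notes, reads were demultiplexed with bcl2fastq 2.18.0.12 and the build was BDGP6; STAR 2.7.10a and HTSeq 0.12.3 are listed too. No source used here gives the settings, annotation version or strand of the counting. Rows that name no feature, for ambiguous reads (4.51% to 5.62% of each library), reads without a feature (0.648% to 0.998%) and reads with several positions (3.10% to 6.27%), stayed out of totals and tests.

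The labels gave each library's group and number. Names, families, positions and overlaps with genes came from the Ensembl 115 annotation of BDGP6.54, which held 5414 of the 5416 insertions. Each insertion was classed by its overlap with exons and introns, and the host was the gene with most exon bases in common, for introns a gene on the insertion's strand where there was any, and outside genes the nearest gene. Counts were filtered by group, scaled by TMM and tested with edgeR 4.0.16 (limma 3.58.1, R 4.3.3) in a quasi-likelihood fit over all 18 libraries, with the name series as a covariate and Benjamini-Hochberg adjustment over 11051 features. For families the counts of all insertions were summed and replaced the single insertions, leaving 10876 features. DESeq2 1.42.0, other scalings, filters, membership thresholds, subsets of libraries and the leaving out of each library were alternatives. The procedure was tested on simulated data. Tables and figures were made with Python 3.11.15, pandas 2.3.3 and matplotlib 3.10.9.

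Insertions were named by rule. In each comparison these were the 6 highest and 6 lowest log2 fold changes among calls whose libraries did not overlap and whose higher mean reached 1 CPM. The 12 insertions and 10 families with the highest CPM, the 3 insertions on each side of 100 counts and 4 genes per pathway list were named as well. Insertions within genes that hold at least 3 tested members, and those of Doc, HeT-A and TART-A, were added after their values were seen. The members and lists were chosen with earlier results of these data known.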

Additional observations from a re-analysis of the deposited data

Results flagged for a closer look

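In each of 114 groups of 6 libraries, formed by an insertion or family and a treatment, the gap of the highest or lowest library to the next was compared with the range, and 7 groups held a library that stood apart. Chance gives about 1 in 20. gypsy12{}2629 was at 5.18 CPM in vehicle replicate 5, with the next vehicle library at 2.17 CPM. The HeT-A family total was at 20.2 CPM in the same library, with the next at 7.53 CPM. INE-1{}1753 was at 0.377 CPM in Day 0 replicate 4, with the next lowest Day 0 library at 1.16 CPM. The hobo (H) family total was at 19.3 CPM in Day 0 replicate 3, with the next at 12.1 CPM. roo{}28, an insertion of 100 counts, was at 0.446 CPM in CHX replicate 5 (next 0.224 CPM), at 0.032 CPM in vehicle replicate 1 (next lowest 0.137 CPM) and at 0.465 CPM in Day 0 replicate 3 (next 0.228 CPM).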

How the results depend on the processing

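Members changed in vehicle against Day 0 flies and in CHX against vehicle flies numbered 173 and 176 of 255 tested. Their prevailing direction was the same in all alternatives run. The number tested changed with the setting. With at least 10 counts in every library 53 and 52 of 67 were called, and in libraries without a hyphen 110 and 114 of 262. Outside genes alone 48 and 49 of 73 were called, without a filter 226 and 242 of 416, and with CHX and vehicle libraries alone 117 of 168. The share of all features called, 82.9% and 83.4%, is that of the main fit. Families numbered 41 and 43 of 80 tested. In libraries without a hyphen 25 of 78 were called for vehicle against Day 0. Without the top insertion of each family 28 of 53 were called for CHX against vehicle. The families did not keep their prevailing direction with library sizes alone. There 18 rose and 17 fell in vehicle against Day 0 flies, and 16 rose and 22 fell in CHX against vehicle flies. The family medians were -0.09 and 0.01 on that scale. The medians of all features, in the fit of single insertions, were 0.49 and -0.53. Leaving out each library gave 169 to 191 and 176 to 199 members, 39 to 43 and 41 to 48 families, and summed levels of -0.85 to -0.78 and 0.83 to 0.91. The summed level was -0.32 and 0.32 with library sizes alone, -1.03 and 1.10 with upper-quartile factors, and -0.29 and 0.27 over insertions under 100 counts, an alternative chosen after seeing the data. The sign turned with library sizes alone for Cr1a{}2411 (0.063), roo{}339 (0.0010) and H{}1735 (0.12) in vehicle against Day 0, and for H{}1735 (-0.37) and the FB family (-0.35) in CHX against vehicle. It turned for mdg1{}1636 in libraries without a hyphen (-0.11), and for the Rt1b family outside genes (0.19 and -0.28) and without its top insertion (0.038 and -0.21). The causes were not tested.

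Replicate numbers are shared by the groups and paired the libraries at most in part. Same-numbered deviations correlated at -0.17 to 0.20 for vehicle against Day 0 and at -0.29 to -0.03 for CHX against vehicle. For CHX against Day 0 they correlated at -0.11 to 0.54, highest for replicate 2. In these comparisons 1, 0 and 2 libraries correlated best with their own number. CHX replicates 2 and 3 resembled Day 0 replicates 2 and 3, with a chi-square per degree of freedom of 16.4 to 24.1. Against CHX replicates 1, 4, 5 and 6 it was 57.8 to 162.7, where lower values mean libraries more alike. The reason was not tested. With the replicate number as a block in place of the name series, 171, 171 and 0 members and 41, 42 and 0 families were called. Depth limits single insertions, since 161 members had too few counts for a test.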

Other observations

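Levels of several insertions varied together within a group. In CHX replicates 1 to 6, Doc{}CHKov1[Doc1420] was at 26.5, 48.8, 48.2, 30.8, 26.9 and 28.0 CPM and Rt1b{}990 at 38.0, 18.2, 17.2, 24.9, 40.4 and 41.8 CPM. CHX replicates 2 and 3 thus had the highest levels of the Doc copy and the lowest of the Rt1b copy. Rt1c{}10 was at 0.10, 3.60, 5.08, 0.93, 0.31 and 0.43 CPM in the same libraries and at 1.02, 3.71, 2.40, 0.79, 5.11 and 0.95 CPM in Day 0 replicates 1 to 6. Reads without a feature were 0.98% and 1.00% of CHX replicates 2 and 3, in a group that ran between 0.673% and 0.998%. Their part in these levels was not tested.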
